A study of Raphanus raphanistrum and Isatis lusitanica and Arabidopsis thaliana with 13 samples.

Results

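The leaf transcriptome of wild radish, *Raphanus raphanistrum*, was described from 3 RNA-seq libraries, labelled replicates 1, 2 and 3, out of 13 samples in the series. All 46064 transcripts of the deposited tables were taken in each library, so that no transcript was chosen for its value. The plants were 8 weeks old and had grown at 23 °C with 15 h of light a day. They carried no named genotype and received no treatment, so there was 1 condition and no comparison between conditions. The series was made to follow DNA methylation of genes and the genes that control it across crucifers, and the other RNA-seq species was not compared here. The sources used here do not state whether the 3 libraries came from separate plants, and each SD below measures the spread between these libraries only.

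A mature leaf is an organ of photosynthesis. In well-studied plants its nuclear messenger RNA is dominated by a small number of genes, such as those for the small subunit of Rubisco, the enzyme that fixes carbon dioxide, and for the proteins that bind chlorophyll. Many other genes are used only in roots, flowers or seeds, or only under stress, and are silent in leaves. A coding sequence may also be present in many near-identical copies, and short reads then cannot be assigned to a single copy. No table used here pairs the wild radish identifiers with gene names, so transcripts are given by identifier only, no role is stated for any of them, and the label leaf was not checked against marker genes.

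Abundance was read from TPM, which divides a count by the length of the transcript open to reads and scales the values to the same total in every library. Transcripts that reached 1 TPM in a library are called detected in it. The libraries held 21181669, 16095778 and 21513838 estimated counts in replicates 1, 2 and 3. At the median length 1 TPM stood for 30.8, 24.1 and 32.3 counts, and 3 counts, taken as the most that a zero can hide, stood for 0.0975, 0.124 and 0.0927 TPM, which covers counting error only. The libraries were far from equal. The chi-square statistic of the counts of a pair, for transcripts whose counts summed to 10 or more, was between 257 and 357 times its degrees of freedom. Replicate 2 stood apart through 1303 transcripts with neighbouring identifier numbers, called runs below, which held 23.9% of its TPM, 0.976% of the TPM of replicate 1 and 7.14% of that of replicate 3. Results that rest on these transcripts are given with and without them.

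Few transcripts held most of the leaf messenger RNA. The 100 most abundant transcripts of each library held 32.4%, 44.0% and 32.8% of TPM in replicates 1, 2 and 3, or 36.4% ± 6.58 (SD, n = 3). The 10 most abundant held 12.8%, 20.3% and 10.7%, and the 1000 most abundant held 63.1%, 73.8% and 63.6%. It took 404, 166 and 390 transcripts to reach 50% of TPM, which was 1.83%, 0.789% and 1.64% of the transcripts detected in that library. Replicate 2 was the most concentrated library by each of these measures. With the runs left out and TPM rescaled, it took 397, 257 and 411 transcripts to reach 50%, and the 100 most abundant held 32.7%, 38.4% and 32.0%. Replicate 2 thus still lay above the others, by a smaller margin.

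**Figure D1:**
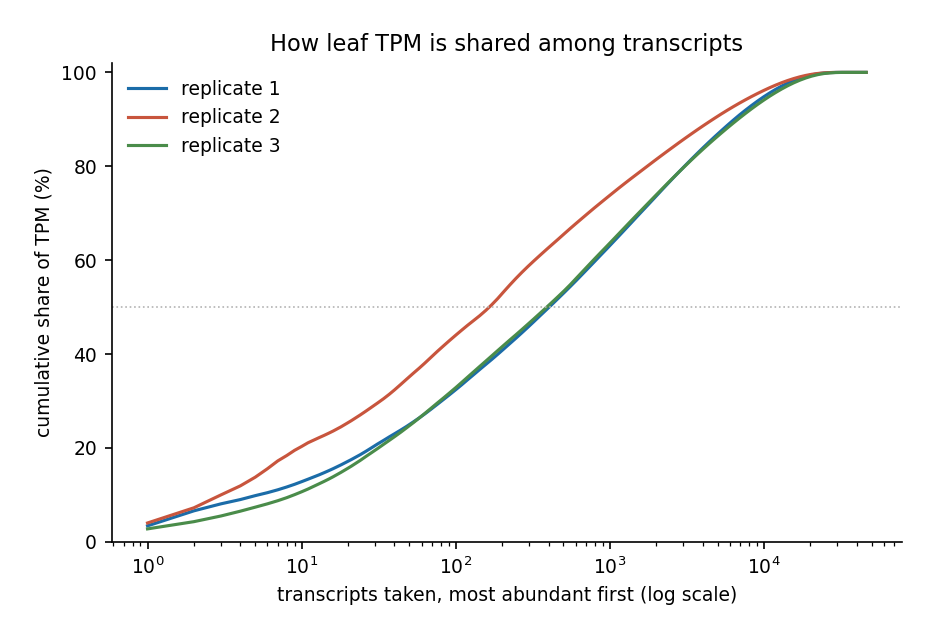
Cumulative share of TPM (%, vertical axis) against the number of transcripts taken from the most abundant down (horizontal log axis), 1 line per library. The dotted line marks 50%, which was reached after 404, 166 and 390 transcripts in replicates 1, 2 and 3.

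At the upper end, 122, 119 and 126 transcripts stood at 1000 TPM or more and held 34.8%, 46.1% and 35.8% of TPM. Between 100 and 1000 TPM lay 1404, 1017 and 1349 transcripts, with 34.7%, 29.2% and 33.7% of TPM. The largest class of detected transcripts, at 1 to 10 TPM, had 12341, 13349 and 13942 members and held no more than 5.78% of TPM in any library. Transcripts below 1 TPM held at most 0.340%. The long tail of weakly expressed transcripts was therefore large in number and small in mass in every library.

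In replicates 1, 2 and 3, 22099, 21048 and 23723 transcripts were detected, a mean of 22290 ± 1348 (SD, n = 3). All 3 libraries detected 18346 transcripts, or 39.8%. This shared set held 97.4%, 97.9% and 95.8% of TPM, so nearly all of the measured messenger RNA came from transcripts that every library detected. A further 3667 transcripts were detected in 2 libraries and 4498 in 1 library. Those detected in a single library numbered 1107 in replicate 1, 715 in replicate 2 and 2676 in replicate 3. No count was found in any library for 9682 transcripts, or 21.0%, and another 9871 had counts but stayed below 1 TPM throughout.

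Which transcripts stood at the top differed between libraries. Of the 10 most abundant, all 3 libraries shared 2. Of the 100 most abundant they shared 45, and of the 1000 most abundant they shared 432. Among the 20 transcripts with the highest mean TPM, 13 had a highest value over 2 times the lowest and 8 had one over 10 times the lowest. The highest value was in replicate 1 for 7 of the 20, in replicate 2 for 6 and in replicate 3 for 7.

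The transcript with the highest mean was TRr0L4c020184.1, of 1320 bases. Its level was 32016 TPM in replicate 1, 19095 TPM in replicate 2 and 10170 TPM in replicate 3. Its reads made up 6.05%, 3.74% and 2.01% of all counts. It was among the 4 most abundant transcripts in each library. A second transcript of 1320 bases with the same tag, TRr0L4c021854.1, had 3221, 2718 and 2731 TPM and varied much less, with a highest over lowest ratio of 1.18. Short transcripts filled most of the other places. TRr0L3c013371.1, of 399 bases, had 33968 and 18061 TPM in replicates 1 and 2 and 1475 TPM in replicate 3. The same library was low for TRr0L3c013238.1, of 339 bases, with 9049, 4509 and 292 TPM. Both lay outside the runs.

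Of the 20 transcripts, 15 were shorter than 600 bases and 6 shorter than 300 bases. TRr0L7c033990.1, of 243 bases, had 14941, 2946 and 4843 TPM. Its neighbour by number, TRr0L7c033989.1, of 240 bases, had 5737, 4508 and 5887 TPM. The first of this pair was over 2 times its neighbour in replicate 1 and below it in replicates 2 and 3, so their order was not stable. The steadiest of the 20 after TRr0L7c033989.1 were 2 transcripts of L5. TRr0L5c025936.1 had 4688, 4163 and 5817 TPM and TRr0L5c024742.1 had 4700, 4420 and 6121 TPM. The shortest of the 20, TRr0L8c036488.1 of 180 bases, had 3820, 3050 and 5426 TPM from 6061, 3443 and 7112 counts, which were whole in every library. The high places of such short transcripts depend on dividing by the length open to reads. With the full length in its place, all 6 below 300 bases had a lower mean. That of TRr0L8c036488.1 fell from 4099 to 1386 TPM and that of TRr0L7c033990.1 from 7577 to 3761 TPM. Of the 10 highest by counts, the shortest was TRr0L3c013371.1, of 399 bases.

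**Figure D2:**
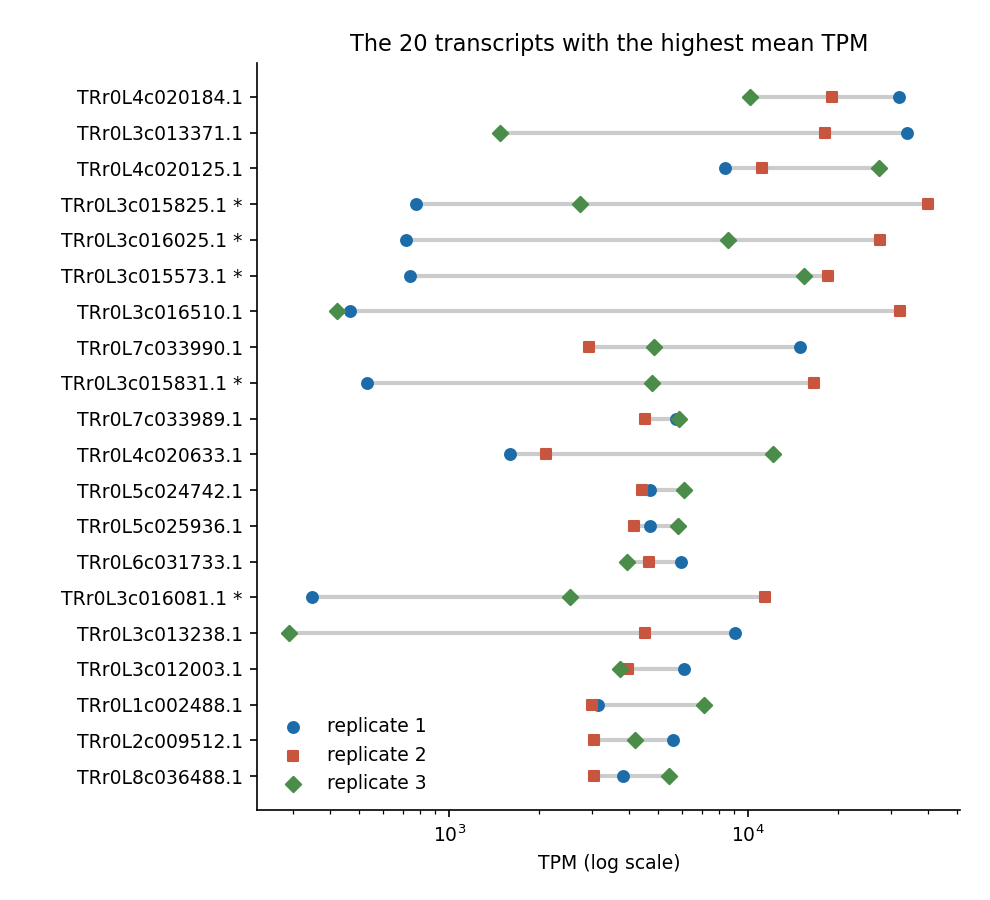
TPM (horizontal log axis) of the 20 transcripts with the highest mean TPM, with 1 point per library and a grey bar over the range; a star marks transcripts of the runs. The 5 starred transcripts and TRr0L3c016510.1 were highest in replicate 2, and TRr0L4c020184.1 had 32016, 19095 and 10170 TPM in replicates 1, 2 and 3.

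A group of transcripts on L4 moved together in replicate 3. TRr0L4c020125.1, of 546 bases, had 8372, 11112 and 27502 TPM. Its length was shared by 81 transcripts in all and by 21 on L4, of which 6 had a mean of at least 100 TPM. These 6 had numbers from 20082 to 20633, and each was highest in replicate 3. Together they held 1.36%, 1.88% and 5.69% of TPM. The next of them, TRr0L4c020633.1, had 1602, 2105 and 12144 TPM. TRr0L4c020084.1 and TRr0L4c020122.1 had the same values, with 1638, 2228 and 6450 TPM each, which occurs when reads that fit both are divided evenly. Apart from TRr0L4c020125.1, each of the 6 had counts that were not whole in at least 1 library. Their reads were thus divided among transcripts, and these are not separate measurements. The counts of TRr0L4c020125.1 were 108476, 108608 and 347503. No count of that size among the named transcripts showed a decimal, so whether its reads were divided as well cannot be told. The group was picked out after its values had been seen.

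The runs lay on 2 tags, and of the TPM of replicate 2 those on L3 held 23.7% and that on L7 only 0.238%. On L3 they took the numbers 14400 to 14699, with 300 transcripts, and 15400 to 16299, with 900 transcripts. On L7 they took the numbers 32200 to 32299, with 103 transcripts. They were found by scanning windows of 100 identifier numbers, of which 436 had enough counts to be read, for a median log2 ratio above 2 between libraries, relative to all transcripts. Of these windows, 13, or 2.98%, were raised in replicate 2 against replicate 1, 12, or 2.75%, in replicate 2 against replicate 3 and 11, or 2.52%, in replicate 3 against replicate 1, while none was raised in replicate 1. With transcripts of equal counts and length kept once, 11, 9 and 8 windows were raised. The windows were chosen by this ratio, so the gap between the libraries in the runs is a description.

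Most transcripts in the runs had no count while a few were very abundant. No count was found for 55.6% of them in any library, against 20.01% of the transcripts outside. Where reads cannot tell copies apart, the level of a single copy is uncertain, so no count need not mean silence. In replicate 2 the runs nevertheless supplied 24 of the 100 most abundant transcripts, against 1 in replicate 1 and 6 in replicate 3. TRr0L3c015825.1, of 492 bases, was the most abundant transcript of replicate 2 with 40116 TPM, and it had 773 TPM in replicate 1 and 2748 TPM in replicate 3. TRr0L3c016025.1, of 1152 bases, had 716, 27591 and 8556 TPM, and took 4.60% of the counts of replicate 2. TRr0L3c015573.1, of 480 bases, had 737, 18519 and 15408 TPM and was thus nearly as high in replicate 3. TRr0L3c015831.1, of 411 bases, had 529, 16611 and 4771 TPM, and TRr0L3c016081.1, of 1722 bases, had 348, 11413 and 2541 TPM. All 5 were lowest in replicate 1, by 25.1 to 51.9 times against replicate 2.

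Beyond the last run, 229 transcripts close L3. They were not called in the scan, but held 0.543%, 5.41% and 0.607% of TPM in replicates 1, 2 and 3. In replicate 2 most of this came from TRr0L3c016510.1, of 450 bases, which had 467, 32338 and 422 TPM. The values without the runs therefore still hold part of the rise of L3 in replicate 2.

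The runs were also repetitive. Their 6 most frequent lengths, 954, 297, 2238, 1455, 1500 and 372 bases, took in 506 of the 1303 transcripts, or 38.8%. The 6 most frequent lengths outside the runs took in 1.49% of the transcripts there. A group of 70 transcripts of 372 bases, 65 of them on L3 and 5 on L1, had equal counts in every library. Each had 23.4, 827 and 270 TPM in replicates 1, 2 and 3, and the 70 together held 0.164%, 5.79% and 1.89% of TPM. Of these 70, 62 lay in the runs. A smaller group of 4 transcripts of 489 bases, of which 3 lay in the runs, had 74.3, 3121 and 45.2 TPM each. It was thus high in replicate 2 alone, whereas the 70 were also raised in replicate 3.

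Over the whole table, 438 transcripts from different loci fell into 156 such groups, and 132 of these were pairs. A group had the same length, counts that were equal within rounding to 0.001 in every library and not whole in at least 1 of them, and a summed count of at least 30 per transcript. The groups took in 9.67% of the transcripts in the runs and 0.697% of those outside. Kallisto, which assigned the reads, gives equal counts to transcripts of the same length that the reads cannot tell apart. The level of a single copy is then uncertain, and the sum over the group is the measured quantity. Among the 100 transcripts with the highest mean TPM, 30 had counts that were not whole, by more than 0.001, in every library. This compares with 14.1% of all transcripts and 23.0% of those with a mean of at least 1 TPM. The largest counts of the named transcripts showed no decimal, so the 30 may be too low and is not fully comparable with these shares. What the transcripts of the runs are, and whether they come from the plant, was not tested.

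Outside the runs replicate 3 was the library most often set apart at high abundance. Of 1322 transcripts there with a mean of at least 100 TPM, 55 were over 10 times lower in replicate 3 than in both other libraries, against 20 for replicate 1 and 7 for replicate 2. These 55 averaged 7.90% of the TPM of replicates 1 and 2. Conversely, 27 were over 10 times higher in replicate 3 than in both others, against 3 in replicate 1 and 9 in replicate 2. With the runs included, 96 of 1435 such transcripts were over 10 times lower in replicate 1, against 8 for replicate 2 and 55 for replicate 3. Of these 1435, 3, 19 and 27 were over 10 times higher in replicates 1, 2 and 3 than in both others. The runs were chosen by ratios between libraries, so the order for low values depends on leaving them out. TRr0L2c010874.1, of 1248 bases, had 2025, 3692 and 23.0 TPM, and TRr0L1c005211.1, of 795 bases, had 2979, 7879 and 210 TPM. TRr0L7c033172.1, of 2721 bases, had 1527, 2114 and 85.02 TPM. In each of these the low value of replicate 3 rested on at least 916 counts.

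Over the 23816 transcripts with a mean of at least 1 TPM, the coefficient of variation (CV), the SD as a percent of the mean, had a median of 51.7%, and 51.1% outside the runs. The ratio of highest to lowest value was within 1.5 for 11.5% of them, and it was above 10, or the lowest value was 0, for 17.4%. Replicates 1 and 2 were within 2 times of each other for 65.0% of transcripts, replicates 1 and 3 for 53.1% and replicates 2 and 3 for 49.0%. The median CV was 54.5% at 1 to 10 TPM, 47.1% at 10 to 100 TPM, 57.0% at 100 to 1000 TPM and 55.5% at 1000 TPM and over. Outside the runs it was 54.1%, 46.7%, 53.8% and 48.8% in these classes, so neither set showed a steady change with abundance.

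Some transcripts were very steady against this spread. TRr0L8c036431.1, of 660 bases, had 1236, 1255 and 1223 TPM, a CV of 1.29%. TRr0L4c021768.1, of 423 bases, had 159, 164 and 159 TPM, and TRr0L1c000809.1, of 1776 bases, had 101, 97.4 and 103 TPM. TRr0L5c023532.1 and TRr0L4c020297.1 were similarly even, with CVs of 2.77% and 2.99%. Such transcripts were chosen as the steadiest among 1435 with a mean of at least 100 TPM, so their evenness is a description.

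At the other extreme were transcripts that were abundant in 1 library alone. TRr0L7c033864.1, of 240 bases, had 449 TPM from 1315 counts in replicate 1 and no count in replicates 2 and 3. TRr0L5c027563.1, of 204 bases, had 329 TPM in replicate 1 and no count in the others. TRr0L4c017027.1, of 1053 bases, had 424 TPM from 10186 counts in replicate 2 and no count in the others. TRr0L1c002067.1 had 619 TPM in replicate 2, 0.433 TPM in replicate 3 and no count in replicate 1. TRr0L3c015174.1, between the runs of L3, had 1.09, 1.03 and 1115 TPM. The library with the high value was replicate 1 for the first pair of these, replicate 2 for the next pair and replicate 3 for the last.

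Shorter coding sequences stood at higher TPM. All but 3 of the lengths could be divided by 3 and were read as coding lengths. Their median was 1056 bases, from 150 to 16125 bases. Among detected transcripts the median TPM fell with each length class. It was 16.2 ± 0.863 below 300 bases, 14.0 ± 2.62 from 300 up to 600 bases, 9.80 ± 1.72 from 600 up to 900 bases, 6.69 ± 0.866 from 900 up to 1500 bases, 5.19 ± 0.557 from 1500 up to 3000 bases and 3.35 ± 0.455 from 3000 bases on (SD, n = 3). The class from 300 up to 600 bases was 5.07, 3.73 and 3.76 times the class from 3000 bases on in replicates 1, 2 and 3. Spearman's correlation of length and TPM across detected transcripts was -0.28, -0.27 and -0.26, over 22099, 21048 and 23723 transcripts. This is a description across transcripts, which are not independent replicates.

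The direction rests on the division by length. In CPM, the count scaled to the same total in every library with no division by length, the class medians of the same transcripts ran the other way, at 2.16 ± 0.251 below 300 bases and 22.5 ± 3.42 from 3000 bases on. On these detected transcripts Spearman's correlation of length and CPM was 0.27, 0.34 and 0.34. The size of the relation also depended on what was counted as detected, since over all transcripts, silent ones included, the correlation of length and TPM was -0.023, -0.011 and -0.016. A TPM of 1 stood for only 2.64 counts on average in the class below 300 bases, against 123 counts from 3000 bases on.

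Detection was highest at middle lengths. In the class from 600 up to 900 bases 52.1% ± 2.47 of transcripts were detected, against 44.2% ± 2.88 below 300 bases and 39.3% ± 4.46 from 3000 bases on (SD, n = 3). The class from 3000 bases on was the lowest in each library. Transcripts without a count in any library were most frequent below 300 bases, at 37.2%, and least frequent from 1500 up to 3000 bases, at 16.6%. The median length of the transcripts detected in all libraries was 1056 bases and that of the silent ones was 888 bases.

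**Figure D3:**
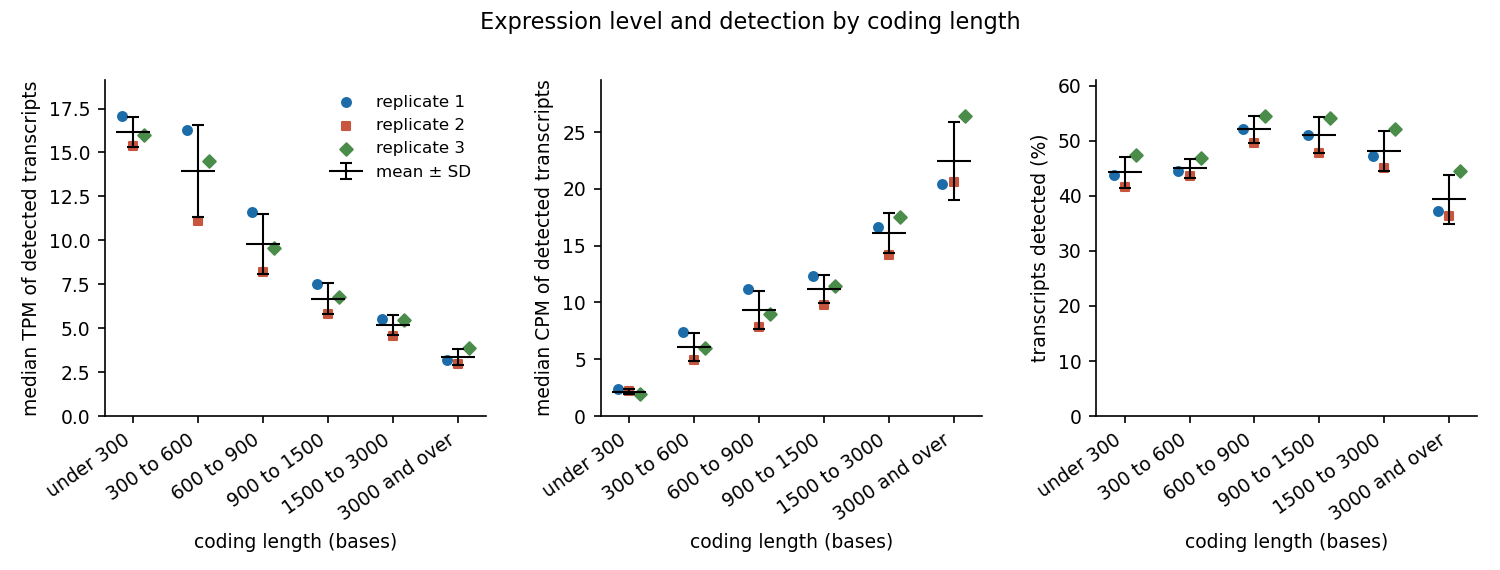
Median TPM (left) and median CPM (middle) of detected transcripts and the share of transcripts detected (right), by coding length class in bases. Points are the 3 libraries and the black bars their mean ± SD; the median TPM fell to 3.35 in the longest class, against 16.2 in the shortest, while the median CPM was 22.5 in the longest and 2.16 in the shortest.

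Short coding sequences held a large part of TPM. The class from 300 up to 600 bases held 19.1% of transcripts and 35.1%, 43.7% and 37.9% of TPM. The class below 300 bases held 4.27% of transcripts and 13.5%, 8.69% and 12.01% of TPM. From 3000 bases on, 5.91% of transcripts held 0.833% ± 0.108 of TPM (SD, n = 3). The mean length weighted by TPM was 778, 767 and 769 bases, against a plain mean of 1306 bases. The 100 transcripts with the highest mean TPM had a median length of 486 bases, and 58 of them were below 600 bases. The longest transcript detected in every library, TRr0L5c028561.1 of 15120 bases, had 1.71, 2.89 and 5.23 TPM from 896, 1216 and 3014 counts. The shortest, TRr0L3c011971.1 of 150 bases, had 10.03, 9.74 and 1.04 TPM from only 11, 8 and 1 counts.

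The identifier of a transcript carries a tag, the letter L and a digit from 1 to 9, and 46031 transcripts had such a tag. The other 33 were on scaffolds, where no library detected more than 1 transcript. Identifier numbers ran from 1 on L1 to 43703 on the scaffolds without starting again. The sources used here do not state that a tag is a chromosome, or that the numbers follow the order of genes along it.

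Detection differed modestly among tags. It was 54.6% ± 3.43 on L5, 51.9% ± 3.003 on L2, 51.8% ± 3.13 on L7, 48.8% ± 2.76 on L9, 47.7% ± 3.24 on L6, 47.6% ± 3.43 on L1, 46.5% ± 2.87 on L4, 46.1% ± 3.14 on L8 and 40.9% ± 1.91 on L3 (SD, n = 3). L5 was highest in each library, and L2 and L7 took the next places in each. The distance between L5 and L8 was 8.39, 8.28 and 8.87 percentage points, so it was steadier than the level of either tag. Neighbours in the middle of the order were closer, and L1 lay above L4 by 1.18, 0.537 and 1.68 points.

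L3 was lowest in each library with all transcripts, at 39.2%, 40.7% and 42.9%. Outside the runs 46.3%, 44.5% and 49.3% of its transcripts were detected, and the lowest tag was L4 in replicate 1 and L8 in replicates 2 and 3. The share of L3 without a count in any library was 29.5% with the runs and 20.3% without them. Over all transcripts it was 21.0% with the runs and 20.01% without them.

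The level of detected transcripts differed little between tags. Averaged over the libraries, their median was lowest on L8, at 6.36 ± 0.808 TPM, and highest on L7, at 7.70 ± 0.996 TPM (SD, n = 3). The highest tag was L7 in replicate 1, L3 in replicate 2 (L7 outside the runs) and L5 in replicate 3. The lowest was L8 in replicates 1 and 2 and L6 in replicate 3. Within a library L7 lay above L8 by 1.61, 1.19 and 1.20 TPM, so the direction was the same in each. In each library L8, L1 and L6 were the 3 lowest of the 9 tags. The share of TPM followed the number of transcripts less closely. L1 held 16.6% of transcripts but 13.0%, 10.05% and 13.1% of TPM, the lowest share per transcript of any tag in each library. L3, with 10.4% of transcripts, held 12.9%, 37.1% and 13.5% of TPM. With the runs left out and TPM rescaled, L3 held 12.1%, 17.6% and 7.02%. The shares of L3 and L4, and that of L7 in replicate 1, rested in part on single transcripts. With all transcripts, the most abundant 1 held 26.3%, 10.8% and 11.4% of the TPM of L3 and 19.4%, 14.9% and 15.2% of that of L4. On L7 it held 14.8%, 7.11% and 7.76%, and on L1 3.32%, 7.84% and 5.42%.

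**Figure D4:**
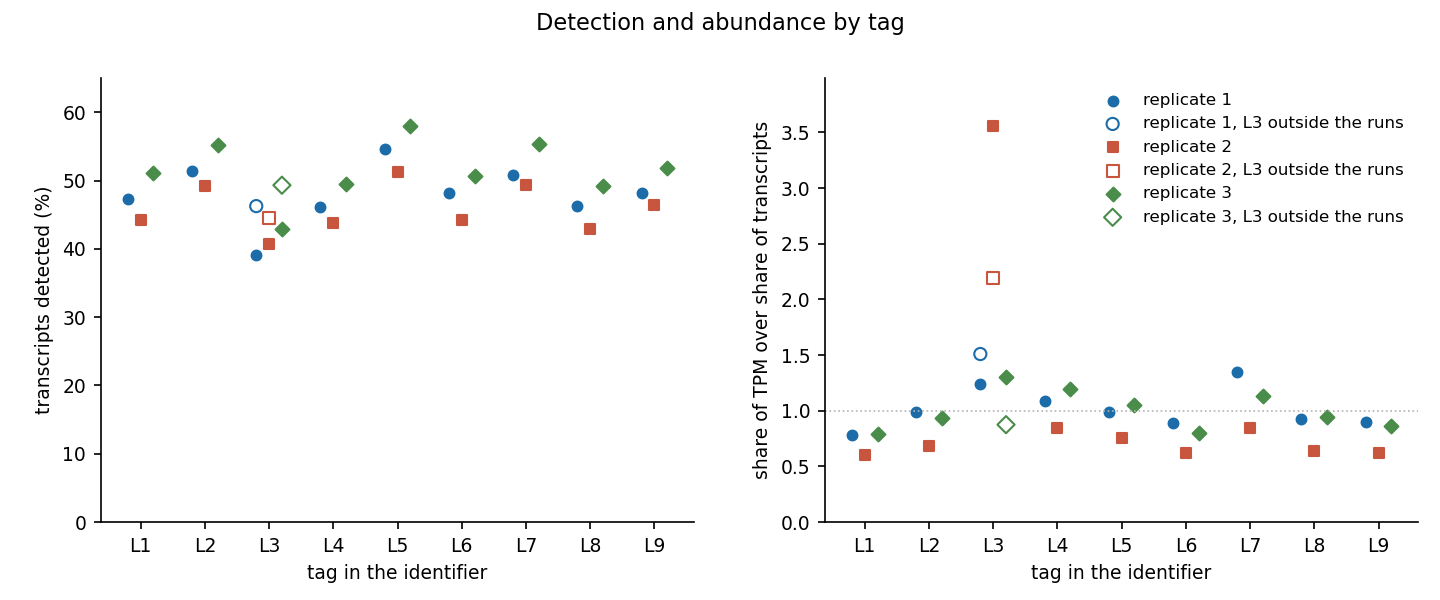
Share of transcripts detected (%, left) and share of TPM divided by share of transcripts (right) for the 9 tags. Filled points are the 3 libraries and open points L3 outside the runs; L5 was highest on the left in each library, and on the right L3 of replicate 2 stood at 3.56, or 2.19 outside the runs.

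Within a tag, detection varied far more than between tags. Over 439 windows of 100 identifier numbers with at least 50 transcripts, the mean share detected ranged from 7.26% to 73.7%, with a median of 50.3%. Low windows lay side by side. Of 41 windows below 30%, 32 had both neighbours below 40%, and 8 belonged to the runs. The share of all 439 windows with both neighbours below 40% is not given here, so this count is a description. The pattern was nearly the same in each library, with a Pearson's correlation of 0.946, 0.956 and 0.951 over the windows for replicates 1 and 2, 1 and 3, and 2 and 3. These values describe windows of the same transcripts and depend on which genes are silent in each.

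In each tag the longest stretch of adjacent windows below 40% spanned at least 5 windows. On L1 it took the numbers 3100 to 3799, where 25.3% of 718 transcripts were detected, against 49.9% in the rest of the tag. On L4 it took 19300 to 19899, with 19.8% of 615 transcripts against 49.1%, and on L9 41700 to 42199, with 24.6% of 520 against 51.9%. In L2 and L5 the stretch lay later in the numbering, at 10400 to 10899 and 26500 to 26999, with 27.2% and 31.0% detected. In L6, L7 and L8 it lay in the first part, at 28900 to 29799, 32200 to 32699 and 35700 to 36699, with 27.96%, 26.5% and 29.3% detected. The stretch of L3, at 15400 to 16499, held 9 windows of the runs and 21.2% of its 1100 transcripts were detected.

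The stretches were chosen for low detection, and between 35.1% and 50.1% of their transcripts had no count in any library, against 21.0% over the whole table. The median length of all transcripts in the stretch was below that of the rest of the tag on 7 of the 9 tags and above it on L2 and L6, so short length did not mark them all. The lowest single window was on L7, at the numbers 32400 to 32499, where 7.26% were detected. The highest was on L2, at 7500 to 7599, with 73.7%.

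**Figure D5:**
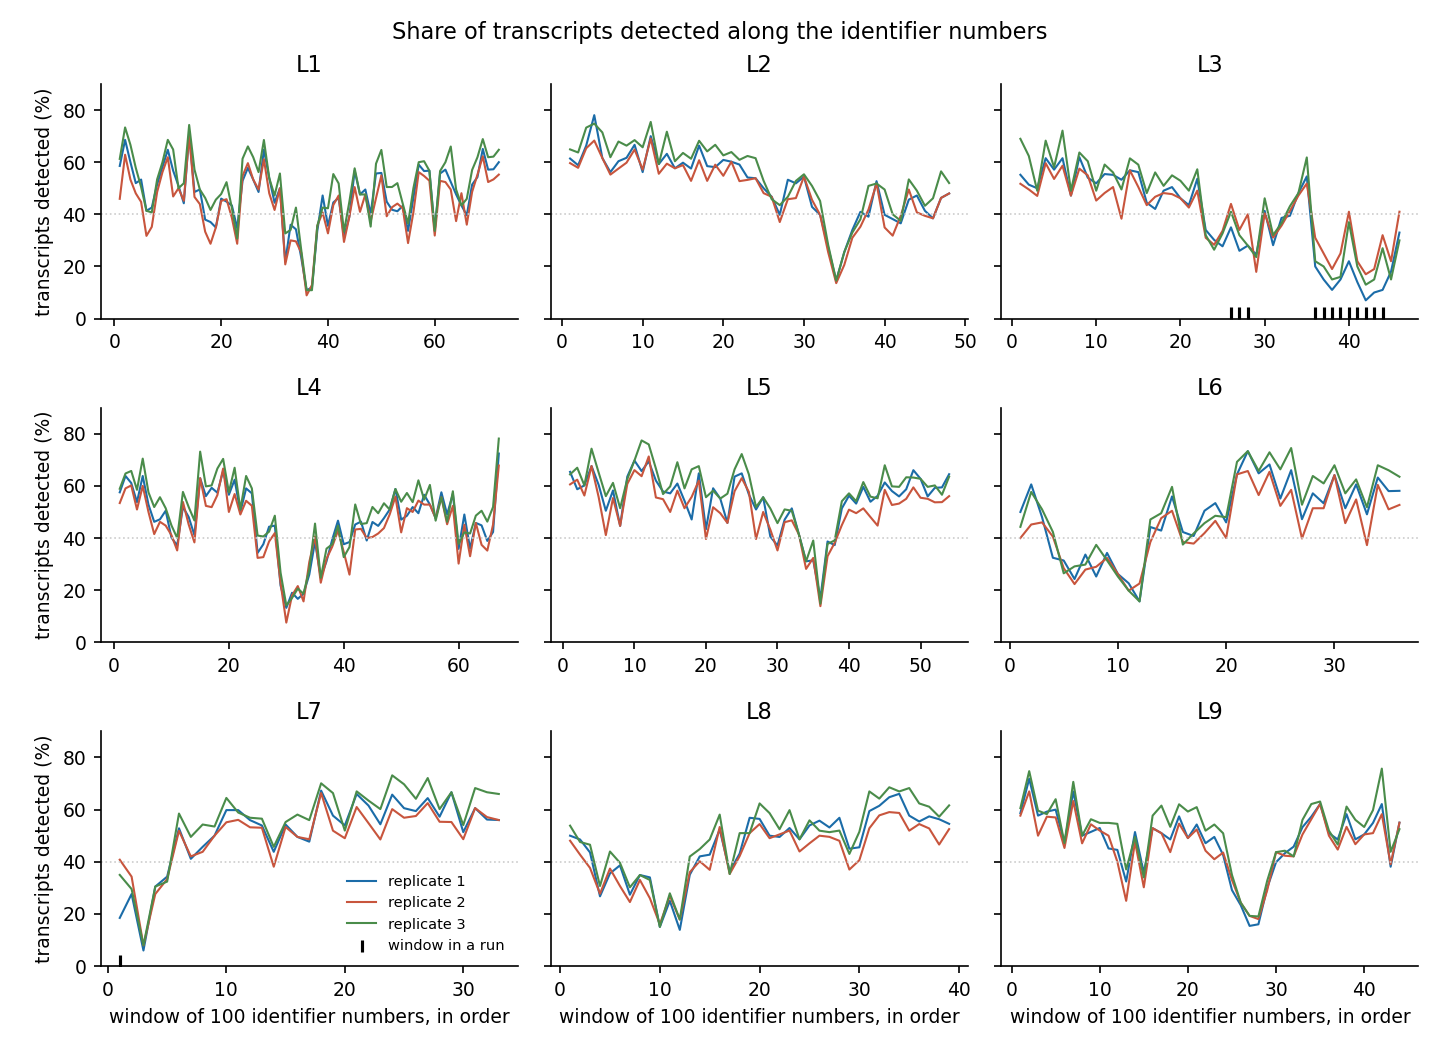
Share of transcripts detected (%, vertical axis) in windows of 100 identifier numbers, taken in order along each of the 9 tags, with 1 line per library; ticks at the foot mark windows of the runs and the dotted line 40%. The 3 lines fall and rise together, with wider gaps in the runs of L3 and L7, and each tag has a stretch below 40%, in the first part of L6, L7 and L8 and towards the middle of L1, L4 and L9.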

How the data were processed

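RNA was extracted from leaves and sequenced with a stranded TruSeq kit. Per the submitters' processing notes, Trimmomatic 0.33 and kallisto 0.50.0 were used. Reads were assigned to the transcriptome of the species, whose version, like the strand setting, was not found for the RNA-seq reads in the sources used here. The authors deposited, per library, the length, effective length, TPM and estimated count of each transcript, and the counts are not normalized. Kallisto divides reads that fit several transcripts among them, so estimated counts need not be whole. Replicates were not pooled.

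Means and SDs over 3 libraries were computed without a test, since there is 1 condition. Depth was 21181669, 16095778 and 21513838 estimated counts. A median log2 ratio was taken per window of the transcripts whose counts summed to 30 or more, with 10 such transcripts or more per window. Named transcripts were the 20 with the highest mean TPM, the 3 highest per tag, the 10 highest by counts, the 5 most and 5 least variable from 100 TPM on, and the longest and shortest detected. Others were picked after their values were seen. The members and lists were chosen with earlier results of these data known. Alternatives were CPM, nominal length, other thresholds and length limits, thinned counts, rounded counts rescaled with edgeR 4.0.16 (TMM) or DESeq2 1.42.0 (size factors), removal of the 1% most abundant transcripts, isoforms summed, runs left out, and each replicate left out. Those for single tags, length classes and transcripts, and the scan with equal copies kept once, were added after seeing the data. Python 3.11.15, pandas 2.3.3 and scipy 1.17.1 were used. The other samples of the series were not analysed here.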

Additional observations from a re-analysis of the deposited data

How the results depend on the processing

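Depth limits low transcripts most, and silence means no count at this depth. No paired analysis was possible because there is 1 condition and replicate numbers are shared with the other species only. The correlation of length and TPM among detected transcripts, -0.27, reversed to 0.089 in CPM with detection from 1 CPM on, and to 0.32 in CPM over the transcripts detected by TPM. It was -0.26 from 300 bases on, -0.19 with nominal in place of effective length, -0.24 and -0.31 at a TPM of at least 0.5 and 5, -0.40 at an estimated count of at least 10, -0.32 at a mean count of at least 10, and -0.29 and -0.30 as Pearson's r of log2(TPM + 0.1) and log2(TPM + 1). The 21.0% of transcripts without a count became 20.01% without the runs, 20.3% from 300 bases on, 22.1% with thinned counts and 21.6% with counts below 1 included. The distance between the highest and lowest tag in the share detected, 13.7 points, was 8.54 without the runs and 8.90 at a TPM of at least 5. The ratio of the highest to the lowest tag in median TPM, 1.21, was 1.41 in CPM, 1.29 with nominal length, 1.31 at a TPM of at least 0.5, 1.36 at a count of at least 10 and 1.32 without the 1% most abundant. With detection from 5 TPM on, there were 13411 detected transcripts, and in CPM 599.3 transcripts held 50%. With each replicate left out, the results ranged from 23.0% to 26.8% for transcripts without a count, from 21574 to 22911 for transcripts detected, from 32.6% to 38.4% for the 100 most abundant, from 278 to 397 for transcripts holding 50% of TPM, from 12.8 to 15.3 points and 1.21 to 1.22 between tags, and from -0.27 to -0.26 for the correlation. The ratio of the highest to the lowest tag in share of TPM per transcript, 2.80, was 1.61 without replicate 2 and at most 3.48. It was 1.93 without the runs and 1.28 without the 1% most abundant transcripts, so much of it rested on few transcripts. Leaving out replicate 2 moved this ratio and the share of TPM of L3, 21.2% with all libraries and 13.2% without it, by over 1.5 times. Leaving out a replicate also moved the mean TPM of 10 of the 20 most abundant transcripts by over 1.5 times, most of all that of TRr0L3c016510.1, at 11075 TPM with all libraries and 444 TPM without replicate 2. A value was taken to stay within 1 SD between libraries or, for numbers of transcripts, within 1.5 times. For the share of transcripts without a count the limit was a 95% Wilson interval, which treats transcripts as independent. With the settings that leave out a replicate set aside, 47 values of the main results stayed, 21 moved further and 1 reversed. For single tags, length classes and transcripts 57 stayed and 11 moved. Where the SD between libraries was large, staying within it says little. The mean of TRr0L7c033990.1 counted as staying when it went from 7577 to 3761 TPM with nominal length, at an SD of 6448. The ratio of 2.80 counted as staying at 1.28, at an SD of 2.43.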
